A study of Mus musculus with 8 samples.

Results

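Peg3, Peg10, Plagl1, Grb10, Slc38a4 and Impact are imprinted mouse genes with a region that receives DNA methylation in the egg and keeps it on the maternal chromosome. Their probes were taken by gene name from the array design, which gave 48 of 88737 probes. Probes whose starts lay up to 500 bp apart were joined into regions, and 42 of the 48 passed the probe filters and formed 8 regions, out of 13183 regions with at least 3 probes. Of the 8 regions, 6 are the known differentially methylated region (DMR) of each gene, placed by the genes' known mm9 positions, and the other 2 are further CpG islands of Grb10.

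Genomic imprinting makes a gene active from 1 parental chromosome only. At a maternally methylated DMR the mark set in the egg is kept through the cell divisions of the embryo by the maintenance methyltransferase and by proteins that recognise methylated DNA, while the paternal copy stays free of methylation, so ordinary somatic tissue carries both states. Most of the 6 genes act on growth or metabolism. Embryonic stem (ES) cells in culture are known to lose or gain imprints.

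The study set ES cells and tissues beside each other by methyl-DNA immunoprecipitation (mDIP), in which denatured DNA fragments are pulled down with an antibody against 5-methylcytidine. On each of the 8 arrays, antibody-bound DNA was labelled with Cy5 and input DNA of the same sample with Cy3. Each group was 1 array. Of the ES groups, the first lacked the cytidine deaminase AID (aid-/-), the second the thymine glycosylase MBD4 (mbd4-/-), the third had Gadd45a, which responds to DNA damage, knocked down, and the fourth was wild type. The tissue groups were aid-/- liver, mbd4-/- liver, aid-/- spleen and mbd4-/- spleen. The mice were C57BL6/J and aged 6 months, and their DNA came from other laboratories, a different one for each genotype. The sources used here give no strain, passage or clone for the ES cells. Wild-type tissue was not analysed here. The arrays measure no RNA, so neither the knockdown of Gadd45a nor the cell type could be checked on expression. Of 8 ES cell marker genes 2 had a region, of 8 liver markers 2, of 8 blood markers 4 and of 5 fibroblast markers 4, and their methylation does not settle a cell type.

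Each region was given log2(bound/input) minus the array's median, averaged over its probes. It ranks a region within its array and is not a percentage of methylated DNA. The top of the scale differed between arrays. The plateau, here the 98th percentile of autosomal regions, was 4.44 in ES aid-/-, 4.26 in ES mbd4-/-, 2.72 in the Gadd45a knockdown, 3.34 in wild-type ES cells, 2.25 in aid-/- liver, 3.98 in mbd4-/- liver, 2.28 in aid-/- spleen and 3.63 in mbd4-/- spleen. The bound signal was well above background for 70.6% of the probes kept in ES aid-/- and for 85.2% to 96.2% on the other 7 arrays. With 1 array a group, a difference between 2 arrays has no replicate check and no test, and it was called only where its log2 size was 1 or more and 75% or more of the region's probes went the same way.

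The regions lie on 6 chromosomes (build mm9). The Peg3 DMR is at chromosome 7, 6682111 to 6683212, with 8 probes kept. The Peg10 DMR is at chromosome 6, 4697308 to 4698444, with 5 probes. The Plagl1 DMR is at chromosome 10, 12810275 to 12811158, with 7 probes. The Grb10 DMR is at chromosome 11, 11925551 to 11926345, with 8 probes, and lies inside the gene. The 2 other Grb10 islands start 10101 bp beyond its end, at 11936447 to 11936713 with 3 probes (promoter island 1) and at 11937235 to 11938162 with 5 probes (promoter island 2). The Slc38a4 DMR is at chromosome 15, 96884810 to 96885274, with 3 probes. No annotation of exons or introns in mm9 was used.

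The array reads each region through oligonucleotides of 45 to 60 nucleotides. The probes below show what was measured for 5 of the genes, with every CpG, the site of methylation, in capitals. They are given 5′ to 3′ as in the array design, which does not state their strand.
Peg3 probe, chr7:6683168-6683212: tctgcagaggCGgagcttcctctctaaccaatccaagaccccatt
Peg10 probe, chr6:4698292-4698336: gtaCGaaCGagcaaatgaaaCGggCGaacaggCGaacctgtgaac
Plagl1 probe, chr10:12810608-12810652: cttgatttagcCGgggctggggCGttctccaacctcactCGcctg
Grb10 differentially methylated region probe, chr11:11926108-11926153: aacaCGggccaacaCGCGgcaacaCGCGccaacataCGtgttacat
Grb10 promoter island 2 probe, chr11:11937393-11937437: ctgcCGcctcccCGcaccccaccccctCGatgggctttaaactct
Slc38a4 probe without a CpG, chr15:96884810-96884861: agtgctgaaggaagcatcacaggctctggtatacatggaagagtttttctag
Slc38a4 probe with 3 CpGs, chr15:96884897-96884941: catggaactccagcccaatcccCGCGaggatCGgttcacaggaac

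The Grb10 DMR was the richest in CpG, with 4.75 CpGs per probe on average, against 2.00 in the Slc38a4 DMR. The Slc38a4 probe without a CpG can report methylation only through the fragment that carries it. The letters TGCCGC, in either direction, which the imprint-keeping protein ZFP57 is known to bind when methylated, were found in 5 of the 42 probes kept, against 2.42% of all probes kept, namely 1 probe of Peg3, 2 of Grb10, of which 1 lies in a promoter island, and 2 of Impact. A match is a run of letters, not a tested binding site.

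RefSeq promoter sequences (GRCm38.p6, 250 bases before to 50 after each start) were at hand for Peg3, Plagl1, Grb10 and Slc38a4, and 4 probes matched one letter for letter. Of these, 2 lie in the promoter of Plagl1 and 1 in that of Peg3, both within a DMR. The other lies in a Grb10 promoter, in promoter island 2. The Plagl1 probes match the promoter as written, and the Peg3 and Grb10 probes match it as the reverse complement. These 3 promoters are printed with CpGs in capitals because they set 2 promoters that lie in a DMR beside 1 that does not.
Plagl1 promoter, chr10:13090582-13090881, plus strand: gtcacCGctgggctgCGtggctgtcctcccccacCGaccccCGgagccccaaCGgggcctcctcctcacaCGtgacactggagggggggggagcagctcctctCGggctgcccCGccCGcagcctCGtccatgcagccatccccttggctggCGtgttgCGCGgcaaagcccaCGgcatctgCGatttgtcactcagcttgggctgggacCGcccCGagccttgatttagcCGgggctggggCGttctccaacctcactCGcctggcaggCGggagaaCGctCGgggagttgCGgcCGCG
Grb10 promoter, chr11:12037371-12037670, minus strand: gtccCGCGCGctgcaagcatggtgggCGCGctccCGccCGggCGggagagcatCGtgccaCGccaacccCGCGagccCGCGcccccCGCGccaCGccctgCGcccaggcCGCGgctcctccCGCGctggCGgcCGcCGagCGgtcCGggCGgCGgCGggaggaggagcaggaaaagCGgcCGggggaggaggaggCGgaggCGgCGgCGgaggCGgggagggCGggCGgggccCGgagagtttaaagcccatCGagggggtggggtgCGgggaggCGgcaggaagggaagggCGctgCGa
Peg3 promoter, chr7:6730370-6730669, minus strand: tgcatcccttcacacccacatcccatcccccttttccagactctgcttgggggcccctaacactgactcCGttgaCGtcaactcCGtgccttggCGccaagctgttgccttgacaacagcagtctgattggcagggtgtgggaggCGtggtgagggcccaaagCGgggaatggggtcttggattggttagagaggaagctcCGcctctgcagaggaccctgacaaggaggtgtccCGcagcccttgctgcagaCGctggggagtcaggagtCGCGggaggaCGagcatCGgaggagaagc
The Plagl1 promoter holds 26 CpGs, the Grb10 promoter 45 and the Peg3 promoter 13, against a median of 7 over 32851 mouse promoters. These 3 were picked because island probes match them. The second Grb10 promoter holds 9 CpGs and the 3 Slc38a4 promoters 5 each, so the median of the 7 is 9. TGCCGC in either direction occurs in 2 of the 7, those of Plagl1 and the first Grb10 promoter, and in 11.6% of all.

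In liver and spleen the 6 DMRs were high and close together. They ranked between the 91.3th and 95.8th percentile of all regions on each of the 4 arrays and reached 61.4% to 88.7% of the plateau. All 6 were at or above 50% of the plateau on each of those arrays, against 9.22% of all regions in aid-/- liver, 8.63% in mbd4-/- liver, 9.79% in aid-/- spleen and 10.5% in mbd4-/- spleen. The Grb10 DMR was the highest of the 6 on 3 of the 4 arrays, and Impact was above it in mbd4-/- liver.

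The ES arrays split in a different way. In aid-/- ES cells 5 of the 6 DMRs were at or above 50% of the plateau, in mbd4-/- ES cells 4, and in the Gadd45a knockdown and in wild-type ES cells 0, against 8.03%, 8.29%, 7.43% and 6.21% of all regions on those arrays. Of the 993 regions that reached 50% of the plateau on all 4 liver and spleen arrays, 717 (72.2%) also did so in wild-type ES cells. The 6 DMRs were among the 993 and none of them was among the 717.

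**Figure D1:**
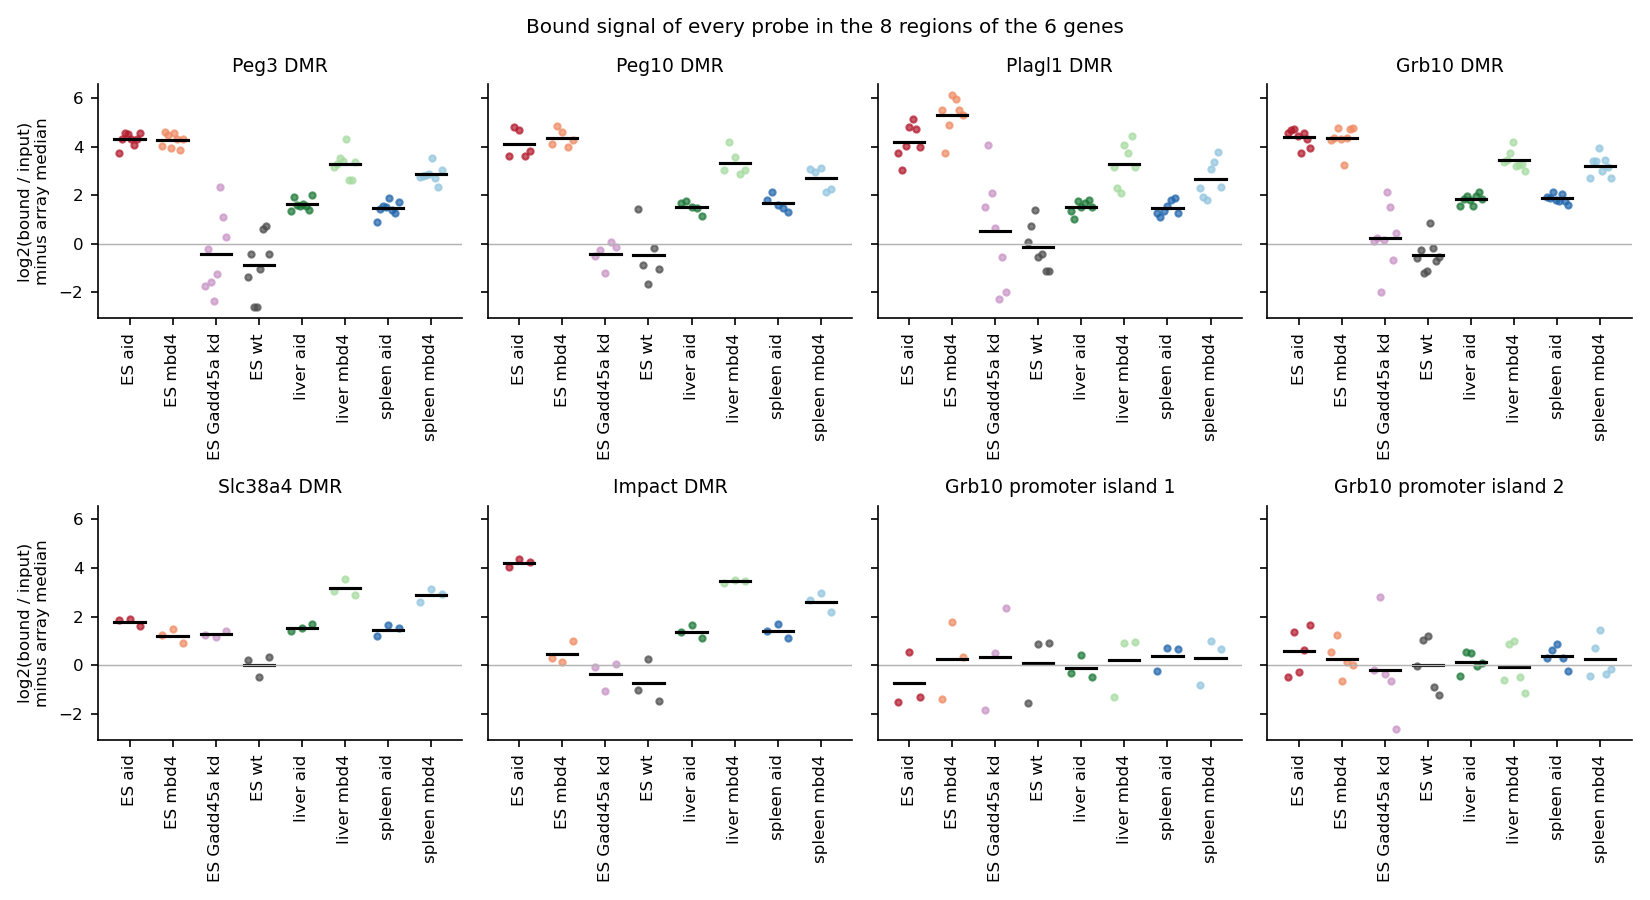
Each panel is 1 region and each point 1 probe, with log2(bound/input) minus the array median on the vertical axis and the 8 arrays along the horizontal axis; the black bar is the mean over probes. Peg3, Peg10, Plagl1 and Grb10 DMRs stand at 4.10 to 5.29 in aid-/- and mbd4-/- ES cells and between −0.89 and 0.51 in the knockdown and wild-type ES cells, whereas the Grb10 promoter islands stay near 0 on all 8 arrays.

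Peg3 encodes a zinc finger protein made from the paternal chromosome that affects growth and maternal behaviour in mice. Its DMR stood at 4.29 in aid-/- ES cells, 4.26 in mbd4-/- ES cells, −0.43 in the Gadd45a knockdown and −0.89 in wild-type ES cells. It stood at 1.63 in aid-/- and 3.29 in mbd4-/- liver, and at 1.47 in aid-/- and 2.86 in mbd4-/- spleen. The wild-type value was at the 11.5th percentile of regions and the aid-/- ES value at the 97.4th. The 8 probes were tight in both knockout ES lines (SD 0.28 in each) and wide in the knockdown (SD 1.60) and wild type (SD 1.28). The bound signal was well above background for 6 of the 8 probes in the knockdown and 7 in wild type. Those that fell short, at 6682111 and 6682489, are among the first 4. Split after the values were seen, the first 4 probes averaged −1.47 in the knockdown and −1.75 in wild type. The last 4, of which 1 matched the promoter, averaged 0.61 in the knockdown and −0.03 in wild type. The probes formed no clean step. In the knockdown and wild type the probe at 6682819 stood at −1.26 and −1.02, below that at 6682310 (−0.23 and −0.44). The highest were those at 6682979 (2.34 and 0.62) and 6683071 (1.09 and 0.72). In aid-/- ES cells the same 2 sets averaged 4.28 and 4.31.

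Peg10, a gene derived from a retrotransposon that the mouse placenta needs, followed Peg3 closely. Its DMR stood at 4.10 in aid-/- ES cells, 4.36 in mbd4-/- ES cells, −0.40 in the knockdown and −0.46 in wild-type ES cells. The liver values were 1.51 (aid-/-) and 3.34 (mbd4-/-), and the spleen values 1.66 (aid-/-) and 2.71 (mbd4-/-). In wild-type cells the probe at 1 end of the region stood at 1.41, and the other 4 were below 0.

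Plagl1 encodes a zinc finger transcription factor that restrains the cell cycle and acts on embryonic growth. Its DMR gave the highest value of the 6 genes on any array, 5.29 in mbd4-/- ES cells, which was 124% of that array's plateau and the 99.9th percentile. It stood at 4.21 in aid-/- ES cells, 0.51 in the knockdown and −0.14 in wild-type ES cells. Liver gave 1.52 (aid-/-) and 3.28 (mbd4-/-), and spleen 1.46 (aid-/-) and 2.65 (mbd4-/-). The knockdown mean covers probes from −2.26 to 4.06, the widest spread of any DMR (SD 2.27, 7 probes). Of these 7 probes 5 had a bound signal well above background there.

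Grb10 encodes an adaptor protein that dampens growth factor and insulin signalling and is made from the maternal chromosome in most mouse tissues and from the paternal one in neurons. Its DMR stood at 4.38 in aid-/- ES cells, 4.35 in mbd4-/- ES cells, 0.24 in the knockdown and −0.46 in wild-type ES cells. It stood at 1.83 in aid-/- and 3.43 in mbd4-/- liver, and at 1.87 in aid-/- and 3.22 in mbd4-/- spleen. All 8 probes had a bound signal well above background on every array.

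Slc38a4 encodes an amino acid transporter of liver and placenta, and its DMR departed from the other 5. It stood at 1.80 in aid-/- ES cells, 1.22 in mbd4-/- ES cells, 1.27 in the knockdown and 0.03 in wild-type ES cells. In liver it stood at 1.55 (aid-/-) and 3.17 (mbd4-/-), and in spleen at 1.47 (aid-/-) and 2.89 (mbd4-/-). It was the lowest of the 6 in mbd4-/- liver and within their range on the other 3 tissue arrays. In plateau units the 4 ES arrays lay between 0.841% and 46.9% and the 4 tissue arrays between 64.6% and 79.6%. In the log2 values they overlapped, with aid-/- ES cells (1.80) above aid-/- liver (1.55) and aid-/- spleen (1.47). How many other regions part in plateau units was not counted. The 3 probes differed little on each array (SD 0.14 to 0.43).

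Impact encodes a regulator of translation that restrains the kinase GCN2. Its DMR is at chromosome 18, 13131830 to 13132313 (mm9), with 3 probes. It stood at 4.23 in aid-/- ES cells and only 0.48 in mbd4-/- ES cells, with −0.35 in the knockdown and −0.73 in wild-type ES cells. Liver gave 1.38 (aid-/-) and 3.47 (mbd4-/-), and spleen 1.41 (aid-/-) and 2.62 (mbd4-/-). It was therefore at 95.1% of the plateau in 1 knockout ES line and 11.3% in the other. Its 3 probes lay between 4.06 and 4.39 in aid-/- ES cells and between 0.15 and 0.99 in mbd4-/- ES cells. These are probes of 1 region on 1 array each, and how many other regions part in this way was not counted.

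**Figure D2:**
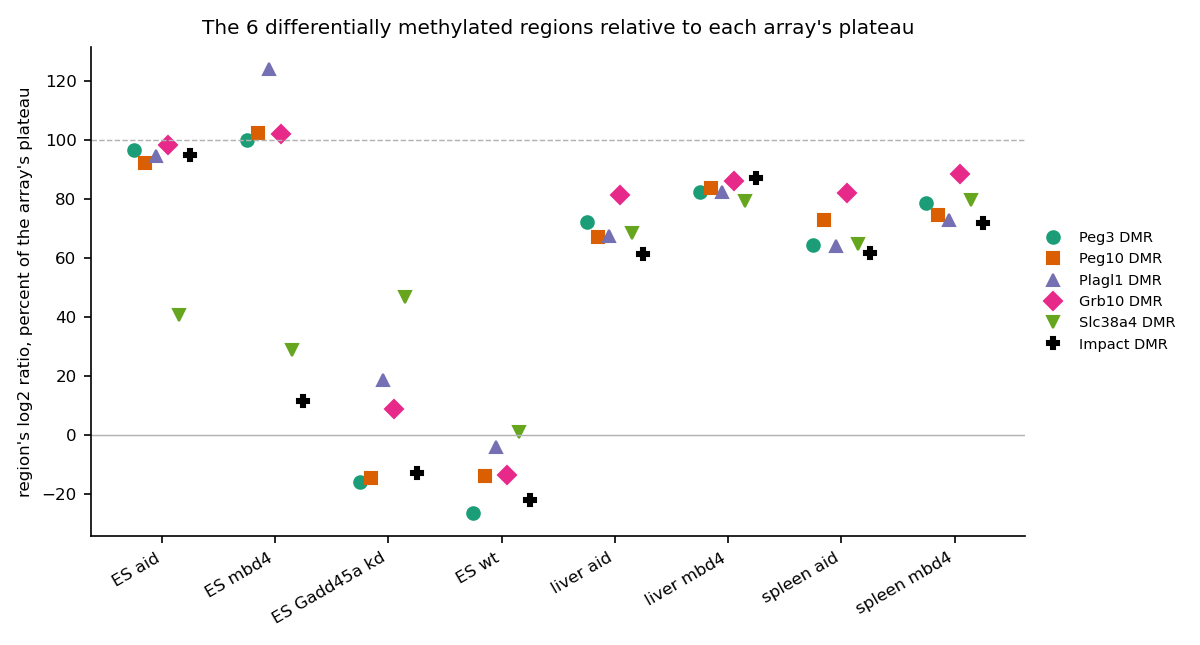
The vertical axis gives the log2 ratio of each DMR as a percentage of the array's plateau, the dashed line marks 100% and the arrays run along the horizontal axis. All 24 points of liver and spleen lie between 61.4% and 88.7%, those of wild-type ES cells lie at or below 0.841%, and Slc38a4 and, in mbd4-/- ES cells, Impact stand apart from the other DMRs of the knockout lines.

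The first comparison asked how the regions differ between aid-/- and wild-type ES cells. All 6 DMRs were called higher in aid-/- ES cells, where 8.7% of all regions were called higher and 2.21% lower. The differences were 5.18 for Peg3, 4.96 for Impact, 4.83 for Grb10, 4.57 for Peg10, 4.35 for Plagl1 and 1.77 for Slc38a4, with an SD over probes of 0.55 to 1.64, and every probe of all 6 went the same way. The median of the 6 was 4.70, against 0.08 over all regions. Except for Slc38a4, which was at the 98.5th percentile, each difference exceeded that of at least 99.9% of all regions.

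The second comparison set mbd4-/- against the same wild-type array, so both share its error. The mbd4-/- and wild-type ES arrays also differed in slide, scan day and software version, which cannot be told apart from the line. Here 5 of the 6 DMRs were called higher, where 7.64% of all regions were called higher and 2.59% lower. The differences were 5.43 for Plagl1, 5.15 for Peg3, 4.82 for Peg10, 4.80 for Grb10 and 1.19 for Slc38a4, with an SD over probes of 0.70 to 1.56. Impact differed by 1.22, but only 2 of its 3 probes were higher, so it was not called. It was called with a GC correction (1.35), with centring on the low mode (1.39) and from the deposited values (1.06), and not called with normexp background correction (0.14), at one plateau for all arrays (1.12) or without the probe filter (1.24). The median of the 6 was 4.81, against 0.06 over all regions.

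The third comparison set the Gadd45a knockdown against the same wild-type array. Here too slide, scan day and software version differed and cannot be told apart from the knockdown. Slc38a4 was the 1 DMR called higher, by 1.25 with all 3 probes higher, where 6.46% of all regions were called higher and 6.46% lower. The other differences were 0.70 for Grb10, 0.65 for Plagl1, 0.46 for Peg3, 0.38 for Impact and 0.06 for Peg10, with an SD over probes of 0.68 to 1.66. A count of 1 in 6 at that background is no result about the DMRs. With another background correction (normexp) Slc38a4 was no longer called in any of the 3 comparisons, at 0.94 for aid-/-, 0.72 for mbd4-/- and 0.43 for the knockdown. It was also not called in aid-/- from the deposited values (1.44) and in mbd4-/- at one plateau (0.94).

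**Figure D3:**
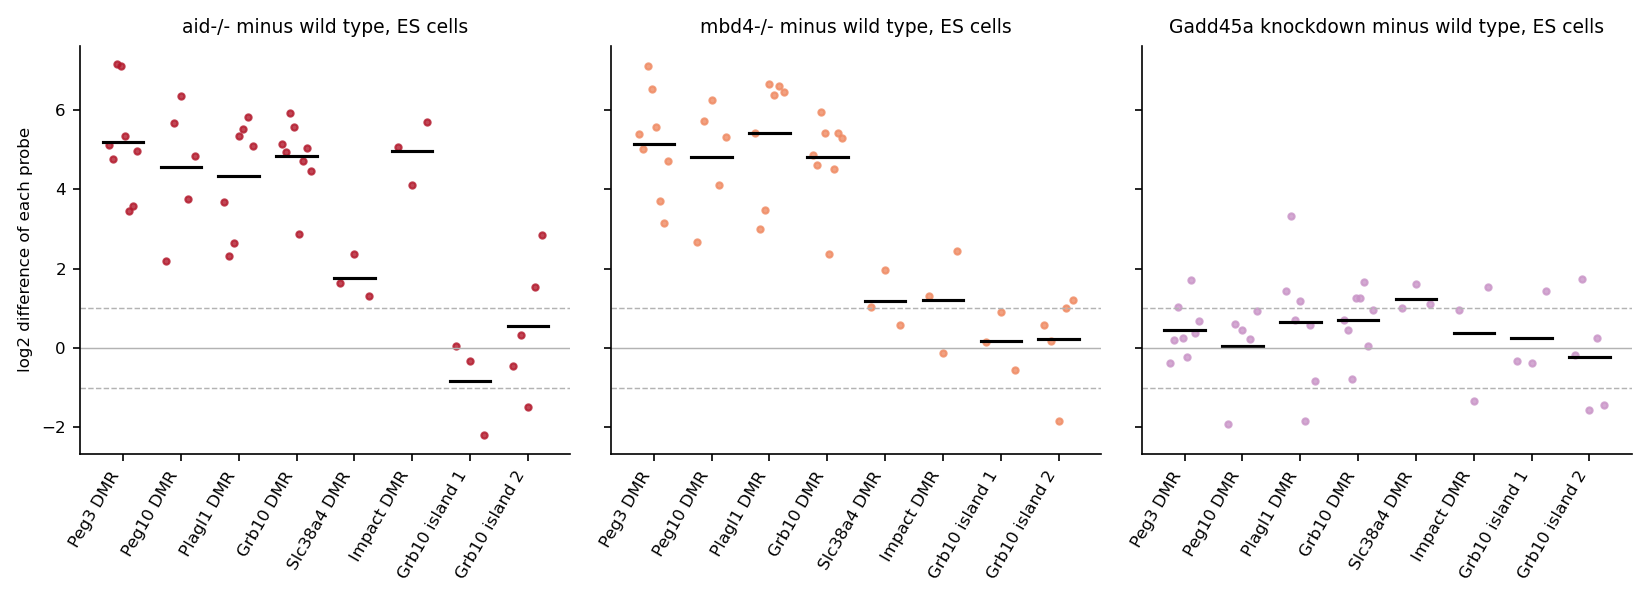
Each point is the log2 difference of 1 probe between the ES array named above the panel and the wild-type ES array, the black bar is the mean over the region's probes and the dashed lines mark differences of 1 and −1. Means of 4.35 to 5.18 in aid-/- (Peg3, Peg10, Plagl1, Grb10, Impact) and 4.80 to 5.43 in mbd4-/- (the same genes without Impact) stand above the knockdown means of 0.06 to 1.25.

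The 2 knockout lines were also set against each other, without the wild-type array. Impact was higher in aid-/- than in mbd4-/- ES cells by 3.74, with all 3 probes higher, where 2.8% of all regions were called higher. Plagl1 was lower in aid-/-, with a difference of −1.08 and 0 of 7 probes higher, where 1.83% were called lower. Peg3 (0.04), Grb10 (0.03), Peg10 (−0.26) and Slc38a4 (0.58) were not called. The plateaus of these 2 arrays, 4.44 and 4.26, are close. The bound signal was well above background for 70.6% of the probes kept in aid-/- and 85.2% in mbd4-/- ES cells. The 2 arrays also differed in slide, scan day and software version, which cannot be told apart from the line.

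Of a list of 21 other maternally methylated genes, 15 had a region, 20 regions in all, 5 of them at Gnas. These are all regions under the genes' names, so not each need be a maternally methylated DMR. Over the 8 arrays 1 Gnas region stood between −0.78 and 0.11 and 1 Inpp5f region between −0.42 and 0.70. In aid-/- against wild type 12 of the 20 were called higher and 0 lower, with a median difference of 1.55, where 8.7% of all regions were called higher and their median was 0.08. In mbd4-/- 12 were called higher and 0 lower, with a median of 2.14, where 7.64% of all regions were and their median was 0.06. In the knockdown 1 was called higher and 0 lower, with a median of −0.02, where 6.46% of all regions were and their median was 0.12. Between aid-/- and mbd4-/- ES cells 2 of the 20 were called lower and 18 were not called, where 1.83% of all regions were called lower and 2.8% higher. These were Mcts2 and Nap1l5. Mcts2, an imprinted retrogene, stood at 1.68 in aid-/- and 4.52 in mbd4-/- ES cells. Nap1l5, also an imprinted retrogene, stood at 1.57 in aid-/- and 5.07 in mbd4-/- ES cells. Wild-type ES cells gave −1.07 for Mcts2 and −0.29 for Nap1l5. The differences between aid-/- and mbd4-/- ES cells were −2.84 for Mcts2 and −3.51 for Nap1l5, of opposite sign to that of Impact.

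Among the other regions of that list, the largest differences in aid-/- against wild type were at Zrsr1 (5.92), Airn (4.96), Kcnq1ot1 (4.78), 2 regions of Gnas (4.48 and 4.11) and Nnat (4.05), and in mbd4-/- at Zrsr1 (6.19), Mcts2 (5.58), Nap1l5 (5.36), Airn (5.14) and Nnat (4.86). In the knockdown Peg13, a non-coding RNA gene, differed most, by 1.62, and it was also the region of the list with the highest wild-type value, 3.73.

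**Figure D4:**
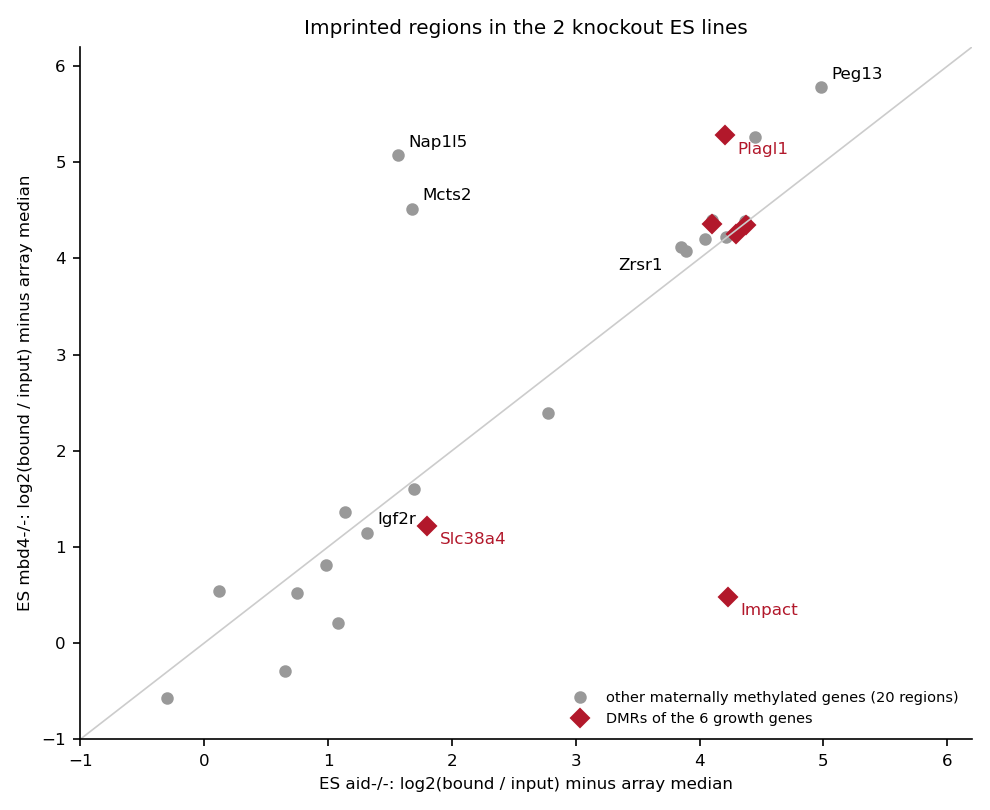
Each point is a region, with its log2(bound/input) minus array median in aid-/- ES cells on the horizontal axis and in mbd4-/- ES cells on the vertical axis; diamonds are the 6 DMRs, circles 20 regions of other maternally methylated genes, and the line marks equal values. Impact lies at 4.23 and 0.48, far below the line, and Mcts2 (1.68 and 4.52) and Nap1l5 (1.57 and 5.07) lie far above it.

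Genes known for methylation on the paternal chromosome had few regions, which were taken by gene name and not by the position of a DMR. Of 6 such genes, 4 had a region, 6 regions in all, of which 2 were called higher in aid-/-, 1 in mbd4-/- and 1 in the knockdown, and 0 lower, where 8.7%, 7.64% and 6.46% of all regions were called higher. At 6 regions, a count of 1 is no result. In liver and spleen all but 1 of the 6 stood between −0.86 and 0.75, so the counts do not speak for paternally methylated DMRs. The exception was a Dlk1 region, at 1.77 to 2.84 in liver and spleen. It stood at 4.26 in aid-/-, 3.76 in mbd4-/-, 2.07 in knockdown and 2.51 in wild-type ES cells, so that wild type was above its values at the 6 maternal DMRs. Of 14 genes that set or keep imprints, such as Dnmt1 and Trim28, 11 had a region, 13 in all, and 0 were called in either direction in any of the 3 comparisons.

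Grb10 allows a DMR to be set beside other islands of the same gene on the same array. The DMR minus the mean of the promoter islands was 4.46 in aid-/- ES cells, 4.10 in mbd4-/- ES cells, 0.18 in the knockdown and −0.51 in wild-type ES cells. It was 1.83 in aid-/- liver, 3.37 in mbd4-/- liver, 1.49 in aid-/- spleen and 2.95 in mbd4-/- spleen. The DMR was thus higher on 7 of 8 arrays, by a mean of 2.23 ± 1.80 (SD, n = 8), and an exact two-sided sign-flip permutation test over the arrays gave p = 0.0234, where the smallest p that 8 arrays allow is 0.00781. The promoter islands ran from −0.74 to 0.57 and were called in none of the comparisons with wild type, where they differed by −0.83 and 0.55 (aid-/-), 0.17 and 0.23 (mbd4-/-), and 0.24 and −0.23 (knockdown). In aid-/- ES cells the bound signal was well above background for 2 of 3 probes of island 1 and 2 of 5 of island 2. In the knockdown the SDs over their probes were 2.10 and 1.94. The 8 arrays differ in genotype and tissue, so the mean describes this set of arrays and no single group. The genes were chosen with earlier results of these data known, and the DMR is a known methylated region. The p-value therefore gives no independent support.

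**Figure D5:**
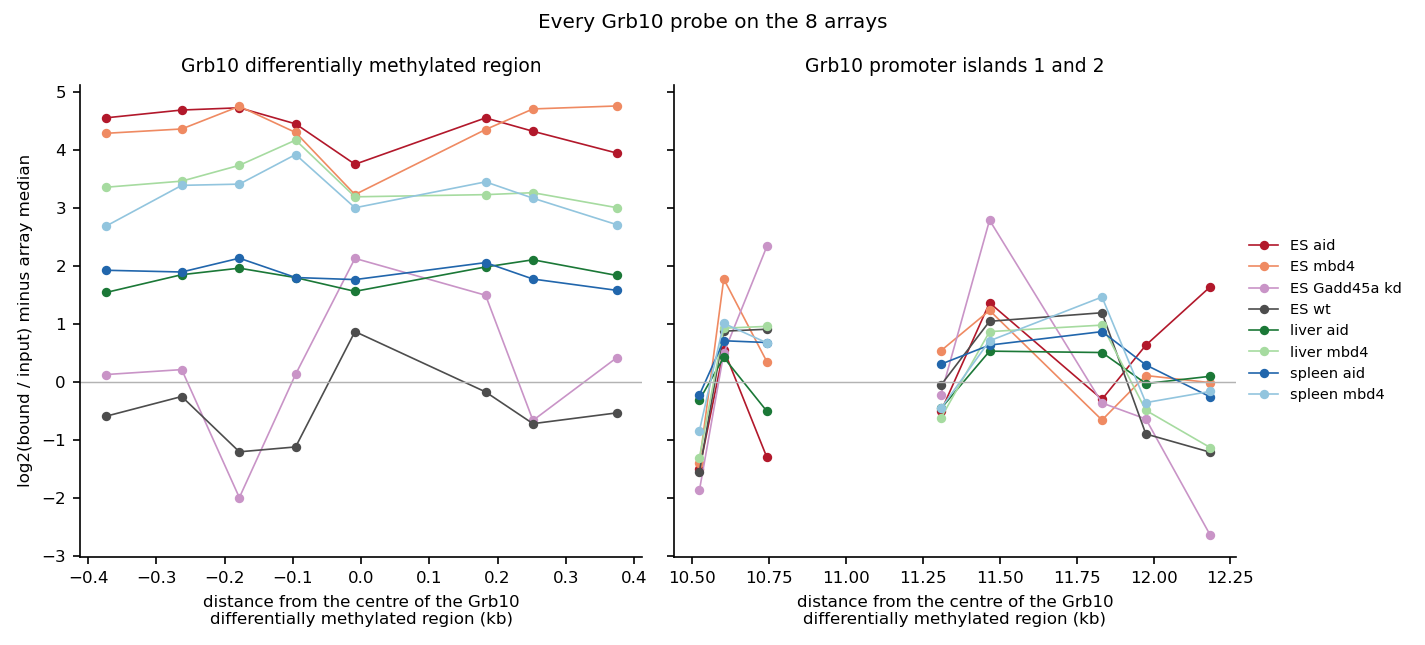
The horizontal axis is the distance in kb from the centre of the Grb10 DMR and the vertical axis log2(bound/input) minus the array median, with 1 line per array and 1 point per probe. The left panel shows the DMR, where region means run from −0.46 in wild-type ES cells to 4.38 in aid-/- ES cells, and the right panel the promoter islands, whose means stay between −0.74 and 0.57.

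The surroundings were read next. Within 500 kb of the 6 DMRs lie 30 other regions, the Grb10 promoter islands included, of which 3 were called higher and 1 lower in aid-/-, 4 and 0 in mbd4-/-, and 2 and 2 in the knockdown. Over all regions 8.7% were called higher and 2.21% lower in aid-/-, 7.64% and 2.59% in mbd4-/-, and 6.46% and 6.46% in the knockdown. Counts this small are no result about the neighbours. Their median was −0.03 in aid-/-, 0.13 in mbd4-/-, −0.06 in knockdown and 0.00 in wild-type ES cells. The nearest named neighbours were Zim1 and Zim3 beside Peg3, Casd1 and Ppp1r9a beside Peg10, Sf3b5 and Ltv1 beside Plagl1, Fignl1 beside Grb10, Slc38a2 and Amigo2 beside Slc38a4 and Osbpl1a beside Impact. Over all regions 6.21% to 10.5% reached 50% of the plateau on a single array, and the share on at least 1 array was not taken. On at least 1 array 6 of the 30 neighbours reached 50% of the plateau. Zim3, a zinc finger gene, did so on all 8, at 4.78 in aid-/-, 4.50 in mbd4-/-, 3.77 in knockdown and 3.70 in wild-type ES cells, 247 kb from a Peg3 DMR that was low in the knockdown and wild type. Pced1b, 269 kb from the Slc38a4 DMR, did so on 7 arrays (4.54, 3.73, 1.33 and 2.03 in aid-/-, mbd4-/-, knockdown and wild-type ES cells). Stx11 near Plagl1 reached it on 5, an unnamed region near Plagl1 on 2, and Zim1 and Casd1 on 1 each.

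The gene-named regions most like the mean of the 6 DMRs over the 8 arrays, among 739 with an SD of at least 1 over the arrays, were Airn (Pearson r = 0.988), Kcnq1ot1 (0.987), Zrsr1 (0.980) and 2 regions of Gnas (0.976 and 0.975), which are imprinted too. For Impact alone they were Spred3 (0.888), Ptpru (0.881), Magi1 (0.876), Tas1r1 (0.870) and Bcl11a (0.861). Among the DMRs themselves r ran from 0.964 to 0.998 between Peg3, Peg10, Plagl1 and Grb10, from 0.582 to 0.753 between Impact and those 4, and from 0.450 to 0.612 between Slc38a4 and those 4. Between Slc38a4 and Impact r was 0.778. The points of each r are the same 8 arrays, whose plateaus differ, so r is given as a description.

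Between ES cells and tissue no DMR passed the limma test, and the 4 ES arrays were spread widely. Arrays of different genotype stood in as replicates, and wild type and knockdown had no tissue array. The SDs, SEs and p-values here therefore hold differences of genotype and line as well as of array. The DMR of Peg3 averaged 1.81 ± 2.86 in the 4 ES arrays and 2.31 ± 0.90 in the 4 tissue arrays (SD), a limma difference of −0.50 ± 1.27 (SE, adjusted p = 0.884). Slc38a4 averaged 1.08 ± 0.75 and 2.27 ± 0.89, a difference of −1.19 ± 0.51 (adjusted p = 0.306), and Impact 0.91 ± 2.27 and 2.22 ± 1.01, a difference of −1.31 ± 1.05 (adjusted p = 0.578). The other differences were −0.41 for Peg10, 0.24 for Plagl1 and −0.46 for Grb10. Of the 6 DMRs 0 passed, at a background of 0.0683% of regions higher and 0.174% lower in ES cells, with 15.9% under an unadjusted p of 0.05. With all arrays scaled to the same plateau, Slc38a4 was lower in ES cells, with a limma difference of −1.47 ± 0.33 (SE, adjusted p = 0.0459 over all regions), the 1 DMR that passed in that setting, where 330 of 13183 regions passed as lower and 64 as higher. Scan day 1 alone holds both kinds of sample, aid-/- and wild-type ES cells with aid-/- liver and spleen, and gave −0.59 for Slc38a4 (adjusted p = 0.858) and 0.15 for Peg3 (adjusted p = 0.988).

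Within 1 genotype, slide and scan day, aid-/- ES cells were set against aid-/- liver. There 5 of 6 DMRs were called higher, all but Slc38a4 (0.26), with differences of 2.54 to 2.84, where 9.77% of regions were called higher and 5.56% lower and the plateaus were 4.44 in ES cells and 2.25 in liver.

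The last comparison set aid-/- against mbd4-/- over ES cells, liver and spleen, with 3 arrays each. Of the 6 DMRs 0 passed, and limma called 0% of regions higher and 0% lower, with 1415 regions (10.7%) under an unadjusted p of 0.05. Plagl1 averaged 2.40 ± 1.57 in aid-/- and 3.74 ± 1.38 in mbd4-/-, a difference of −1.34 ± 0.20 (SE, adjusted p = 0.464), and was lower in all 3 tissues. Impact averaged 2.34 ± 1.63 and 2.19 ± 1.54, a difference of 0.15 ± 1.11 (adjusted p = 0.964), and its sign was positive in ES cells and negative in liver (−2.08) and spleen (−1.21). In liver all 6 DMRs were called lower in aid-/-, with differences of −1.60 to −2.08, where 7.65% of regions were called lower and 1.34% higher, and in spleen of −1.05 to −1.42, where 7.59% were called lower and 0.281% higher.

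Liver and spleen alone gave a limma difference of −1.44 to −1.65 for the 6 DMRs, adjusted p = 0.00173 to 0.00384, where 7.52% of regions passed as lower and 0.607% as higher. The plateaus moved the same way, at 2.25 and 2.28 in the aid-/- arrays and 3.98 and 3.63 in the mbd4-/- arrays. Scaled to the same plateau, a setting added after the data were seen, the differences shrank to −0.19 to −0.60 with adjusted p from 0.341 to 0.756, and 0 of 13183 regions passed. In all 3 sample types the aid-/- arrays were scanned on another day than the mbd4-/- arrays, so genotype, scan day and the laboratory the DNA came from cannot be told apart.

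The input channel was examined on its own. The log2 input signal of a DMR relative to the array median varied over the 8 arrays by 0.35 (Slc38a4) to 0.73 (Peg3). The Grb10 DMR had the highest input, between 0.31 and 1.02, and the Peg10 DMR the lowest, between −0.81 and −0.36. No member probe was saturated on any array. Loss of imprints in the wild-type and knockdown ES cells and gain in the knockout lines cannot be told apart by ratios within an array, and an effect of passage or origin of the lines was not tested.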

How the data were processed

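Spot intensity values in the deposited files came from Agilent Feature Extraction, version 10.7.3.1 for ES mbd4-/- and the Gadd45a knockdown and 10.9.1.1 for the other 6 arrays, background-subtracted and dye-normalised per the file headers. The deposited log10 ratio of each spot, per the file headers, was used to check the direction of Cy5 over Cy3. The authors' deposited value table is a score, with medians of −0.21 to −0.03 per array and r = 0.901 to 0.974 with the scanner log2 ratio; its log base and scale are not given in the sources used here, and it served as an alternative. Positions are in mm9, per the file headers.

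Of 88737 probes, 326 had no position, 132 carried an outlier mark and 7309 had a dim input spot on at least 1 array, and these were dropped, which kept 81105 (some failed on several counts). The log2 ratio of the processed signals was centred on each array's median over those probes, with no loess or quantile step. Probe names are those given with the knockdown array; all 48 member probes have the same name with the mbd4-/- ES array. Tests used limma 3.58.1 in R 4.3.3 over all 13183 regions with Benjamini-Hochberg adjustment, and an exact sign-flip test for Grb10; aid-/- minus mbd4-/- was fitted with tissue as a block. Since each group is 1 array, the p-values measure the spread between arrays of different genotype or tissue and not between replicates. For liver and spleen alone the fit has almost as many coefficients as arrays. Its p-values therefore rest mainly on the variance that limma pools over all regions.

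The 6 genes and the gene lists were chosen with earlier results of these data known. All 6 genes are named with every region; neighbours within 500 kb are named where nearest on either side or at 50% of the plateau on any array; 5 regions most alike are named for the mean of the DMRs and for Impact; and of the other imprinted genes up to 6 per comparison, by size of difference. Alternatives were normexp background (on median signals, as 6 files hold no mean signals), no probe filter, arrays at one plateau, centring on the low mode, a GC correction, the deposited values, joining at 250 bp, leaving out each array, and scan day as a block. The number of arrays limits the precision.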

Additional observations from a re-analysis of the deposited data

Results flagged for a closer look

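Impact was the 1 DMR whose difference between aid-/- and mbd4-/- ran in opposite directions by at least 1 on the log2 scale in different sample types. In ES cells it was higher in aid-/- by 3.74 (4.23 in aid-/- and 0.48 in mbd4-/-). In liver it was lower in aid-/- (1.38 in aid-/- and 3.47 in mbd4-/-, a difference of −2.08), and likewise in spleen (1.41 in aid-/- and 2.62 in mbd4-/-, a difference of −1.21). All 6 DMRs were called lower in aid-/- in liver and in spleen, where 7.65% and 7.59% of all regions were. The plateaus of the aid-/- liver and spleen arrays were lower too. At one plateau the Impact difference in liver and spleen was −0.60, so its size there depends on the scaling. How many other regions change sign in this way was not counted. With 1 array in each group the difference between sample types was not tested.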

How the results depend on the processing

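Peg3, Peg10, Plagl1 and Grb10 kept a difference of at least 2.57 in aid-/- and 2.73 in mbd4-/- against wild type under the alternatives that gave a value, and Impact one of at least 3.16 in aid-/-. The number of DMRs called higher in aid-/- was 5 or 6, and in mbd4-/- 4 to 6, apart from joining at 250 bp, where Slc38a4, Impact and Peg10 had under 3 probes and 3 of 3 were called in each and 0 in the knockdown. The mean of the DMRs was 3.83 in ES aid-/-, 3.33 in ES mbd4-/-, 1.57 in aid-/- liver, 3.33 in mbd4-/- liver, 1.56 in aid-/- spleen and 2.82 in mbd4-/- spleen. With normexp 0 were called in the knockdown, and the mean was 2.54 in ES aid-/-, 2.17 in ES mbd4-/-, 1.03 in aid-/- liver, 2.55 in mbd4-/- liver, 0.92 in aid-/- spleen and 2.25 in mbd4-/- spleen. At one plateau it was 2.34, 2.81 and 2.30 in aid-/- liver, mbd4-/- liver and aid-/- spleen, centred on the low mode 3.52 in mbd4-/- liver and 1.77 in aid-/- spleen, and in mbd4-/- liver 3.51 with GC correction and 3.55 from the deposited values. Over all regions, those called higher in aid-/- numbered 1147, against 264 with normexp, 461 at one plateau and 556 from the deposited values (1007 in mbd4-/-, against 158 and 388 with the first and second; 851 in the knockdown, against 107 with normexp). Those called lower numbered 291, against 3, 125, 122 and, centred on the low mode, 165 (341 in mbd4-/-, against 16, 147, 169 and 185).

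Grb10 DMR minus promoter islands ran from 1.57 to 2.73 under the alternatives, and from 1.91 to 2.62 without 1 array (exact permutation p 0.0156 to 0.0469). For ES cells minus liver and spleen, Slc38a4 alone of the DMRs passed, at one plateau, where Plagl1 turned to −0.45. With scan day as a block, and on scan day 1 alone, Peg3 (0.15), Peg10 (0.23), Grb10 (0.11) and Impact (0.35) turned positive. Without 1 array the differences ran from −1.33 to 0.40 for Peg3, −1.23 to 0.38 for Peg10, −0.70 to 1.11 for Plagl1 and −1.21 to 0.40 for Grb10, and 0 DMRs passed each time. Over all regions 9 passed as higher and 23 as lower, against 64 and 330 at one plateau, 0 and 1 with normexp, 22 and 39 with GC correction, 4 and 11 centred on the low mode, 0 and 0 with scan day as a block or day 1 alone, the last chosen after seeing the data, and 0 to 109 and 0 to 65 without 1 array. For aid-/- minus mbd4-/-, Impact turned to −0.019 with normexp, −0.037 with GC correction and −0.60 in liver and spleen at one plateau. Leaving out an array there removes its tissue: 6 DMRs passed without either ES array and 0 without any 1 liver or spleen array, with Impact between −1.65 and 1.27. The cause of these changes was not tested. A slide block for this comparison could not be fitted. The aid-/- minus mbd4-/- fit holds tissue as a block and so sets the arrays of each tissue side by side. No paired analysis was possible because of the absence of replicate numbers in the labels, beyond that pairing by tissue.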
